A study of Mus musculus with 12 samples.

Results

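The ADAM and ADAMTS proteases are zinc-dependent metalloproteases that carry a disintegrin-like domain, and the transcripts of 10 of them were followed in the mouse brain after cerebral ischemia/reperfusion (I/R). The genes Adam8, Adam10, Adam12, Adam17, Adamts1, Adamts4, Adamts5, Adamts9, Adamts14 and Adamts15 were taken by symbol from a table of read counts for 39756 genes. All 10 were in the table, and all 10 were among the 17558 genes with enough counts to be tested.

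Poly(A) RNA was sequenced from brain hemispheres of 12 C57BL/6J mice, all labelled as a single batch and, by the study's methods, all male and 9 to 10 weeks old. The 4 Sham mice had sham surgery, the 4 Vehicle mice had transient middle cerebral artery occlusion (tMCAO, a filament that blocks the artery and is then withdrawn) and saline, and the 4 LJP mice had tMCAO and Laminaria japonica polysaccharide (LJP), a sulfated polysaccharide of a brown alga. By the methods, saline or LJP was given by stomach tube once a day before surgery and again after it, on the same schedule in all groups, and the methods tie neither a dose nor an hour of sampling to the sequenced mice, although the study took its middle dose of LJP forward after dose finding. There was no sham group given LJP, so LJP without ischemia was not measured. The comparisons ask which of these transcripts differed after I/R and whether their levels differed between treated and untreated I/R mice.

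ADAM proteins are anchored in the cell membrane, and ADAM10 and ADAM17 are the main sheddases, which release the outer part of receptors, adhesion molecules and cytokines from the cell surface. ADAMTS proteins are secreted and act in the extracellular matrix, where several members cut the lecticans, the chondroitin sulfate proteoglycans that fill the space around neurons, and others trim procollagens. In the brain both families are known from synapse and perineuronal net remodelling, from vessels and from leukocytes that enter injured tissue, and the tissue inhibitors of metalloproteases (TIMPs) hold them in check.

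Adamts1 (Entrez 11504) lies on the minus strand of chromosome 16 at chr16:85793827-85803113 of GRCm38, and Adamts5 (23794) follows on the same strand at chr16:85858157-85901125, 55043 bases away with 1 gene between them. Adam8 (11501, chr7:139978932-139995207) and Adam12 (11489, chr7:133883199-134225097) share the minus strand of chromosome 7 but are 5753834 bases and 71 genes apart. The minus strand also holds Adam17 (11491, chr12:21323509-21373632), Adamts9 (101401, chr6:92772699-92944450), Adamts14 (237360, chr10:61197112-61273419) and Adamts15 (235130, chr9:30899155-30922452). Adam10 (11487, chr9:70678944-70780229) and Adamts4 (240913, chr1:171250129-171262267) are on the plus strand. The end of Adam17 overlaps Iah1 on the opposite strand, which had at most 226 counts per mouse. The strand setting of the counting is not given in the sources used here, so reads from this shared end cannot be told apart.

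RefSeq promoter sequences of GRCm38.p6 were at hand for 6 of the 10 genes, namely Adam8, Adam10, Adam17, Adamts1, Adamts9 and Adamts14. The 250 bases before the start are shown for the 4 genes with the highest fold changes after I/R, 5′ to 3′ on the strand of the gene, because they are the start regions of the genes that rose most. Capitals mark each match to the GC box GGGCGG on either strand.
Adamts1 (chr16:85803114-85803363, minus strand): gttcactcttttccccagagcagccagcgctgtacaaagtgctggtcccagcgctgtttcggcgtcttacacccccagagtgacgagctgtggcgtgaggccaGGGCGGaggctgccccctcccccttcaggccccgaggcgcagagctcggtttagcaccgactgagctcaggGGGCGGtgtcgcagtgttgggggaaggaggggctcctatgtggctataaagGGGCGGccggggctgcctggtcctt
Adam8 (chr7:139992563-139992812, minus strand): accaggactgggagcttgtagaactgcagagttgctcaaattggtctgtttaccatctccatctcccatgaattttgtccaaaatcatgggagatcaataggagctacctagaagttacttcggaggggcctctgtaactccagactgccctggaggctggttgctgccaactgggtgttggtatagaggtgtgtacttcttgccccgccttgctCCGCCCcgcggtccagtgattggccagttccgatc
Adamts9 (chr6:92943535-92943784, minus strand): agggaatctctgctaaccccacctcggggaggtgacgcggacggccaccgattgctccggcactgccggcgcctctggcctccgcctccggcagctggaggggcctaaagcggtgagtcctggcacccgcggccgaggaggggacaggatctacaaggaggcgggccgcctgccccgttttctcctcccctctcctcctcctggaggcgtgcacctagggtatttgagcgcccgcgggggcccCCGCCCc
Adamts14 (chr10:61273420-61273669, minus strand): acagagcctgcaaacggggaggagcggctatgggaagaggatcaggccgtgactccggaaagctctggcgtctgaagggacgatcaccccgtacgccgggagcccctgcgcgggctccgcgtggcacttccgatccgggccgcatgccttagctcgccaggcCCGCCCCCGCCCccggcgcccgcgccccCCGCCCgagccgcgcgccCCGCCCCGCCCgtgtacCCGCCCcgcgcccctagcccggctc
The RefSeq starts used for Adam8 and Adamts9 lie inside the spans that the count table lists for these genes, so their windows do not sit at the listed gene ends. GC content was 65.6% in Adamts1, 52.8% in Adam8, 71.2% in Adamts9 and 76.4% in Adamts14.

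Motifs were searched on both strands from 250 bases before the start to 50 bases after it, and overlapping matches were counted separately. The GC box was present in 6 of 6 promoters, against 35.7% of 32851 promoters in the RefSeq table. Adamts14 held 7 matches, of which the shown stretch contains those before the start, Adamts1 held 3 and Adam8 and Adamts9 held 1 each. The hypoxia element ACGTG was found in 1 of 6 promoters, that of Adam10, against 19.6% of all promoters. None of the 6 held the AP-1 site TGANTCA, the cyclic AMP response element TGACGTCA, the STAT site TTCNNNGAA or the NF-kappa B site, which were present in 7.81%, 1.79%, 8.3% and 0.411% of all promoters. A match of these letters is a description of the window and not evidence of a bound factor.

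Levels are given as counts per 1000000 counts of a library (CPM), on library sizes normalized by the trimmed mean of M-values (TMM). Total counts ranged from 17960353 to 22216315 per mouse, and 3 counts, the limit used for a gene at 0, correspond to 0.129 to 0.173 CPM. Defining markers of neurons, astrocytes and oligodendrocytes were detected in every group. The Vehicle mice were not alike. The summed level of 7 macrophage and monocyte markers was 152 CPM in Vehicle mouse 1 and 270.0 CPM in Vehicle mouse 2, but 28.9 and 49.8 CPM in mice 3 and 4, against 10.3 to 14.2 CPM in Sham mice. Summed choroid plexus markers split the same mice the other way, at 21.6 and 19.3 CPM in mice 1 and 2 and 526 and 482 CPM in mice 3 and 4, and ran from 30.7 to 900.1 CPM in Sham mice and from 21.2 to 384 CPM in LJP mice. The part of this in the results was not tested. Results that changed most with Vehicle mice 1 and 2 are also given without them, an alternative chosen after these values were seen. Replicates are separate mice of a group by their labels, so p-values measure the spread between these mice, and in whole-tissue RNA a change in the number of cells of a type and a change in RNA per cell cannot be told apart.

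After I/R, 8 of the 10 proteases rose and none fell (edgeR quasi-likelihood test, Benjamini-Hochberg adjusted p below 0.05 over all genes tested). Of all 17558 genes, 22.7% were called higher in Vehicle than in Sham mice and 17.3% were called lower. The risen genes were Adam8, Adam12, Adam17, Adamts1, Adamts4, Adamts5, Adamts9 and Adamts14, and for these 8 every Vehicle mouse lay above every Sham mouse, which held in the same direction for 20.7% of all genes. Adam10 and Adamts15 did not pass the test. The median log2 fold change of the 10 genes was 1.76, with a range from 0.19 to 4.64, and the median was 1.13 without Vehicle mouse 2. With Vehicle mice 1 and 2 left out, 6 of the 10 and 5370 genes in all were called in either direction, against 7014 genes with all mice, and Adamts4 (adjusted p = 0.488) and Adamts5 (adjusted p = 0.0752) were no longer among them.

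In LJP mice all 10 genes had a lower fitted level than in Vehicle mice, although Adamts15 turned to 0.26 without Vehicle mouse 2, and 0 of the 10 passed the same edgeR test at adjusted p below 0.05. The test called 0.0228% of all genes lower and 0.0% higher in this comparison. At an unadjusted p below 0.05 the count was 8 of 10, against 29.7% of all genes in either direction, and 7 passed the study's thresholds on fold change and unadjusted p, against 5.89% of all genes lower. DESeq2 called 7 of the 10 lower, against 8.99% of the 18103 genes it tested. By edgeR the count was 5 with no filter on low counts, where 593 genes of the table were called, 7 without Vehicle mouse 3 (adjusted p from 0.00824 to 0.0229), where 3857 genes were called, and 7 without Vehicle mouse 4 (from 0.0310 to 0.0456), where 2095 genes were called. The median log2 fold change was −1.47, with a range from −3.09 to −0.23, and the median was −0.77 without Vehicle mouse 2. Every LJP mouse lay below every Vehicle mouse for 1 gene, Adam12, as it did for 5.91% of all genes. With Vehicle mice 1 and 2 left out, 0 of the 10 and 8 genes in all were called, and the log2 fold changes lay between −1.001 and −0.05.

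Against Sham mice, 2 of the 10 genes, Adam8 and Adamts14, were called higher in LJP mice, where 3.85% of all genes were called higher and 0.9% lower by the edgeR test. Every LJP mouse lay above every Sham mouse for Adam8, Adam17 and Adamts14, as it did for 12.9% of all genes. Vehicle against Sham and LJP against Vehicle share the 4 Vehicle mice, so the values of the comparisons are given side by side and are not independent of each other.

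**Figure D1:**
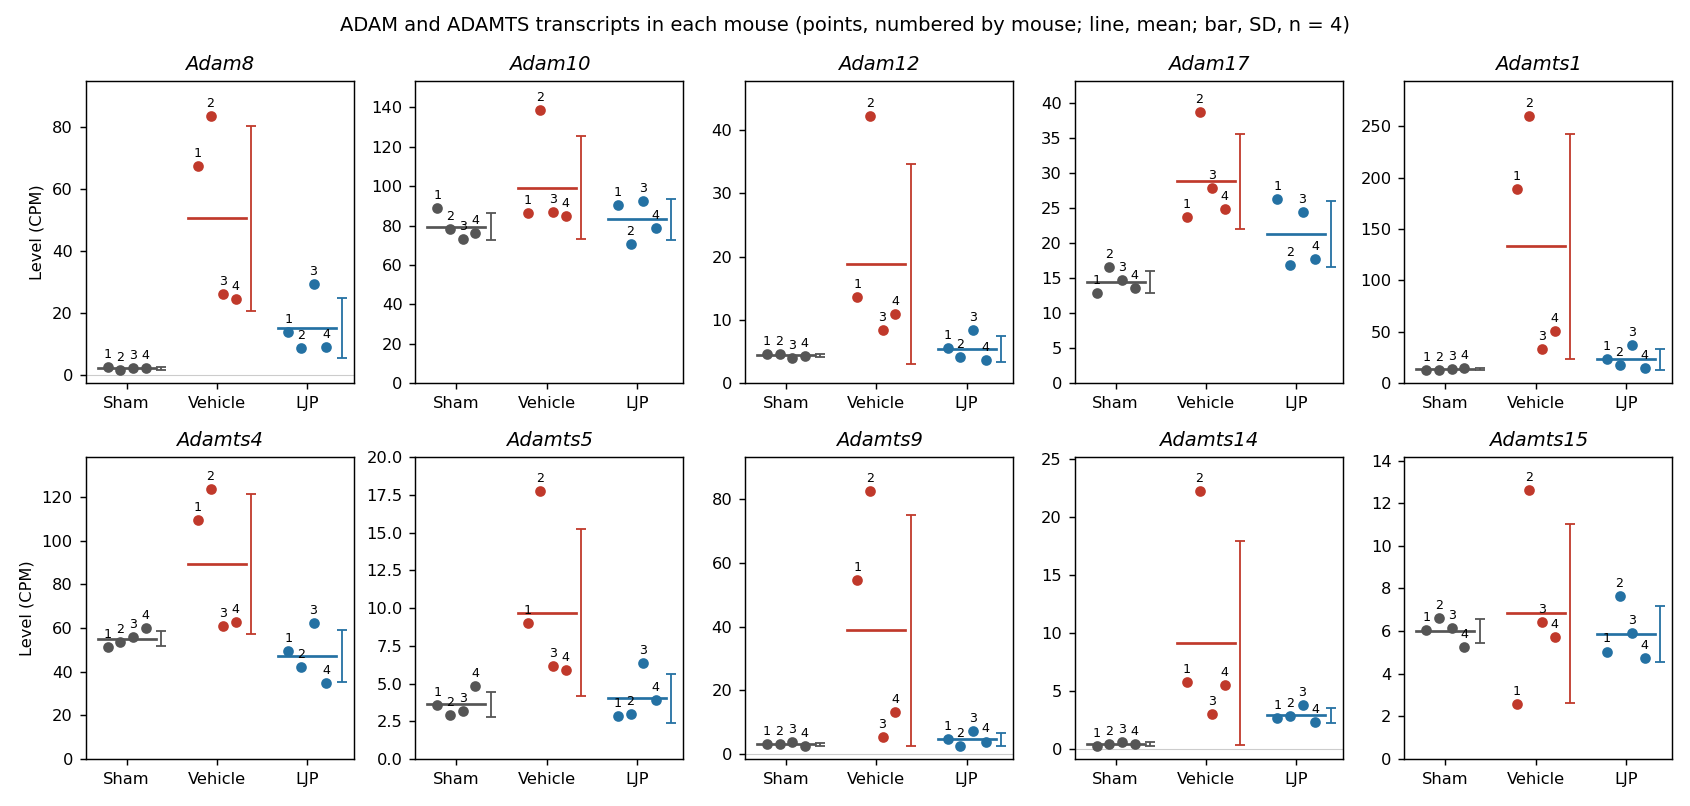
Each panel plots the level of 1 gene in CPM on a linear vertical axis in the Sham, Vehicle and LJP mice; points are single mice with their numbers, the line is the mean and the bar beside it the SD (n = 4). Vehicle mouse 2 was the highest of its group in all 10 panels, and LJP mouse 3 was the highest of its group in 8 of 10.

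Adam10 and Adam17, the constitutive and the inducible sheddase of many surface proteins, were the least spread of the 10 genes within the Vehicle group. Adam10 measured 89.2, 78.2, 73.4 and 76.5 CPM in Sham mice 1 to 4, 86.6, 139, 87.1 and 84.8 CPM in Vehicle mice and 90.3, 70.7, 92.5 and 79.0 CPM in LJP mice. Vehicle mouse 2 was the single high value, and the other 3 Vehicle mice lay within the range of the Sham mice. The log2 fold change was 0.32 (SE 0.15, edgeR adjusted p = 0.106) in Vehicle against Sham and −0.26 (SE 0.15, adjusted p = 0.265) in LJP against Vehicle.

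Adam17 measured 12.9, 16.6, 14.8 and 13.6 CPM in Sham mice, 23.8, 38.7, 27.9 and 24.9 CPM in Vehicle mice and 26.3, 16.9, 24.4 and 17.8 CPM in LJP mice. Vehicle and Sham mice did not overlap, and LJP mice lay above all Sham mice, with mice 1 and 3 inside the Vehicle range. Adam17 rose 1.99-fold in mean CPM in Vehicle mice, with a log2 fold change of 0.99 (SE 0.18, edgeR adjusted p = 0.00166). In LJP against Vehicle the log2 fold change was −0.43 (SE 0.18, adjusted p = 0.135), and in LJP against Sham it was 0.56 (SE 0.18, adjusted p = 0.109). The last value passed without Vehicle mouse 2 (adjusted p = 0.0252) and without Vehicle mice 1 and 2 (0.00878).

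Adam8, a membrane protease of myeloid cells and activated microglia, had the highest fold change of the 10 genes. It measured 2.60, 1.36, 2.14 and 2.02 CPM in Sham mice, 67.6, 83.7, 26.1 and 24.6 CPM in Vehicle mice and 13.8, 8.59, 29.2 and 8.97 CPM in LJP mice. Every I/R mouse was above every Sham mouse, and LJP mouse 3 lay above Vehicle mice 3 and 4. The mean rose from 2.03 ± 0.509 CPM to 50.5 ± 29.8 CPM in Vehicle mice (SD, n = 4) and was 15.1 ± 9.64 CPM in LJP mice. The log2 fold change was 4.64 (SE 0.54, edgeR adjusted p = 0.000151) in Vehicle against Sham, place 87 of 17558 genes from the highest. Between LJP and Vehicle mice it was −1.74 (SE 0.45, adjusted p = 0.0678; DESeq2 adjusted p = 0.0163), and in LJP against Sham it was 2.90 (SE 0.52, edgeR adjusted p = 0.00706).

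Summed neutrophil markers, 7 genes of which none passed the filter on low counts, were 160 CPM in Vehicle mouse 1, 40.0 CPM in mouse 2, 0.646 CPM in mouse 3 and 4.85 CPM in mouse 4, against 0.164 to 0.346 CPM in Sham and 0.307 to 0.816 CPM in LJP mice. The defining markers Ly6g, Retnlg and Cxcr2 were at 0 in all Sham mice, and Ly6g did not exceed 4 counts in any mouse. Adam8 stood at 26.1 CPM in Vehicle mouse 3 and at 8.59 CPM or more in the LJP mice, where neutrophil markers summed to less than 1 CPM. In Vehicle mice 1, 2 and 4 Adam8 stood at 67.6, 83.7 and 24.6 CPM. The part of neutrophils in these values was not tested. With Vehicle mice 1 and 2 left out, the log2 fold change of Adam8 against Sham was 3.64 (SE 0.40, edgeR adjusted p = 1.86e-05), and that of LJP against Vehicle was −0.74 (SE 0.35, adjusted p = 0.369).

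Adam12, a protease of fusing and proliferating mesenchymal cells, measured 4.61, 4.63, 4.06 and 4.25 CPM in Sham mice, 13.7, 42.3, 8.45 and 10.9 CPM in Vehicle mice and 5.50, 4.19, 8.38 and 3.73 CPM in LJP mice. Vehicle mice lay above all Sham mice and all LJP mice, although LJP mouse 3 was only just below Vehicle mouse 3, and LJP mice overlapped Sham mice. Adam12 rose in Vehicle mice by a log2 fold change of 2.11 (SE 0.45, edgeR adjusted p = 0.00379). For LJP against Vehicle it was −1.79 (SE 0.44, adjusted p = 0.0678; DESeq2 adjusted p = 0.00258), and in LJP against Sham 0.31 (SE 0.45, adjusted p = 0.770). Vehicle mouse 2 decided the size of both differences, which without it were 1.32 (adjusted p = 0.00163) and −1.02 (adjusted p = 0.0928), and with mice 1 and 2 left out were 1.14 (adjusted p = 0.00313) and −0.83 (adjusted p = 0.194).

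Among the secreted proteases that cut lecticans (Adamts1, Adamts4, Adamts5, Adamts9 and Adamts15), 4 of 5 rose after I/R, beside 22.7% of all genes called higher. Adamts4 and Adamts5 lost this call with Vehicle mice 1 and 2 left out. Adamts1, which also binds VEGF and restrains vessel growth, measured 12.9, 13.1, 14.1 and 14.6 CPM in Sham mice, 189, 259.7, 33.7 and 50.7 CPM in Vehicle mice and 23.8, 17.3, 37.3 and 14.5 CPM in LJP mice. Vehicle mice 1 and 2 were several times above mice 3 and 4, all 4 lay above the Sham mice, and LJP mouse 3 lay above Vehicle mouse 3. The mean was 13.7 ± 0.822 CPM in Sham, 133 ± 109 CPM in Vehicle and 23.2 ± 10.1 CPM in LJP mice (SD, n = 4). The log2 fold change was 3.28 (SE 0.57, edgeR adjusted p = 0.00125) in Vehicle against Sham, −2.52 (SE 0.55, adjusted p = 0.0678; DESeq2 adjusted p = 0.00237) in LJP against Vehicle and 0.76 (SE 0.54, adjusted p = 0.496) in LJP against Sham. With Vehicle mice 1 and 2 left out, these became 1.62 (adjusted p = 0.000364), −0.86 (adjusted p = 0.200) and 0.76 (adjusted p = 0.0273).

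Adamts9, which cuts versican and aggrecan, had the widest spread within the Vehicle group, a highest over lowest ratio of 15.6. It measured 3.17, 3.05, 3.62 and 2.44 CPM in Sham mice, 54.7, 82.5, 5.27 and 13.04 CPM in Vehicle mice and 4.59, 2.51, 7.34 and 3.90 CPM in LJP mice. Vehicle mice were above all Sham mice, LJP mice overlapped both groups, and LJP mouse 3 lay above Vehicle mouse 3. Adamts9 rose by a log2 fold change of 3.67 (SE 0.70, edgeR adjusted p = 0.00215), with place 177 of all genes tested. The value for LJP against Vehicle was −3.09 (SE 0.68, adjusted p = 0.0678; DESeq2 adjusted p = 0.00196), the lowest of the 10 genes and place 48 from the lowest of all, and in LJP against Sham 0.58 (SE 0.70, adjusted p = 0.718). Without Vehicle mouse 2 the first 2 values were 2.99 (adjusted p = 0.00259) and −2.41 (adjusted p = 0.0928), and with mice 1 and 2 left out they were 1.57 (adjusted p = 0.00407) and −1.001 (adjusted p = 0.256).

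Adamts4, the aggrecanase best known for cutting brevican in the brain, was already high in Sham mice, at 51.4, 53.3, 55.8 and 59.8 CPM. It measured 109, 124, 61.0 and 62.7 CPM in Vehicle mice and 49.3, 41.9, 62.4 and 34.6 CPM in LJP mice. Vehicle mice 3 and 4 were barely above the highest Sham mouse, and LJP mouse 3 lay between them. Adamts4 rose by a log2 fold change of 0.70 (SE 0.23, edgeR adjusted p = 0.0296). The call was lost without Sham mouse 1, 2 or 3 or Vehicle mouse 1 or 2, each left out in turn, where adjusted p ran from 0.0609 to 0.0864, and with Vehicle mice 1 and 2 both left out the value was 0.16 (adjusted p = 0.488). Set against Vehicle mice, LJP mice gave −0.92 (SE 0.23, adjusted p = 0.0678; DESeq2 adjusted p = 0.00552) and in LJP against Sham −0.23 (SE 0.23, adjusted p = 0.656).

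Adamts5, the neighbour of Adamts1 and an aggrecanase of cartilage, measured 3.58, 2.94, 3.18 and 4.82 CPM in Sham mice, 8.98, 17.8, 6.19 and 5.87 CPM in Vehicle mice and 2.82, 2.97, 6.36 and 3.90 CPM in LJP mice. Vehicle mice did not overlap Sham mice, and LJP mouse 3 lay above Vehicle mice 3 and 4. Adamts5 rose by a log2 fold change of 1.42 (SE 0.37, edgeR adjusted p = 0.00968), which was 0.72 (adjusted p = 0.0752) with Vehicle mice 1 and 2 left out. It was −1.28 (SE 0.37, adjusted p = 0.0705; DESeq2 adjusted p = 0.0122) in LJP against Vehicle, or −0.60 (adjusted p = 0.388) with Vehicle mice 1 and 2 left out, and 0.14 (SE 0.37, adjusted p = 0.886) in LJP against Sham.

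Adamts15, which also cuts lecticans, was the member that showed least difference. It measured 6.06, 6.59, 6.14 and 5.23 CPM in Sham mice, 2.59, 12.6, 6.40 and 5.71 CPM in Vehicle mice and 5.04, 7.67, 5.93 and 4.74 CPM in LJP mice. The Vehicle group held both the lowest and the highest value, and all groups overlapped. The log2 fold change was 0.19 (SE 0.35, edgeR adjusted p = 0.691) in Vehicle against Sham, −0.23 (SE 0.35, adjusted p = 0.677) in LJP against Vehicle and −0.04 (SE 0.35, adjusted p = 0.969) in LJP against Sham. Each of these signs turned when a single mouse was left out.

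Adamts14, which removes the amino-terminal propeptide of fibrillar procollagens, was nearly absent from Sham mice, with 4, 7, 11 and 8 counts. It had 127, 518, 56 and 103 counts in Vehicle mice and 58, 55, 70.0 and 42 counts in LJP mice. On the CPM scale this was 0.231 to 0.603 in Sham, 3.01 to 22.3 in Vehicle and 2.34 to 3.81 in LJP mice, so that every I/R mouse was above every Sham mouse and the LJP range reached into the Vehicle range. The log2 fold change was 4.47 (SE 0.62, edgeR adjusted p = 0.000378) in Vehicle against Sham, place 97 of all genes tested, and 2.81 (SE 0.62, adjusted p = 0.0223) in LJP against Sham. Between LJP and Vehicle mice it was −1.66 (SE 0.50, adjusted p = 0.0745; DESeq2 adjusted p = 0.0167). Without Vehicle mouse 2 the first and the last value were 3.52 (adjusted p = 2.95e-05) and −0.72 (adjusted p = 0.171), and with mice 1 and 2 left out they were 3.36 (adjusted p = 1.28e-05) and −0.56 (adjusted p = 0.426). The call in LJP against Sham was lost when any 1 of the 4 Sham mice was left out (adjusted p from 0.0518 to 0.0827) or LJP mouse 3 (adjusted p = 0.0698), and it passed with Vehicle mice 1 and 2 left out (adjusted p = 3.87e-05).

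**Figure D2:**
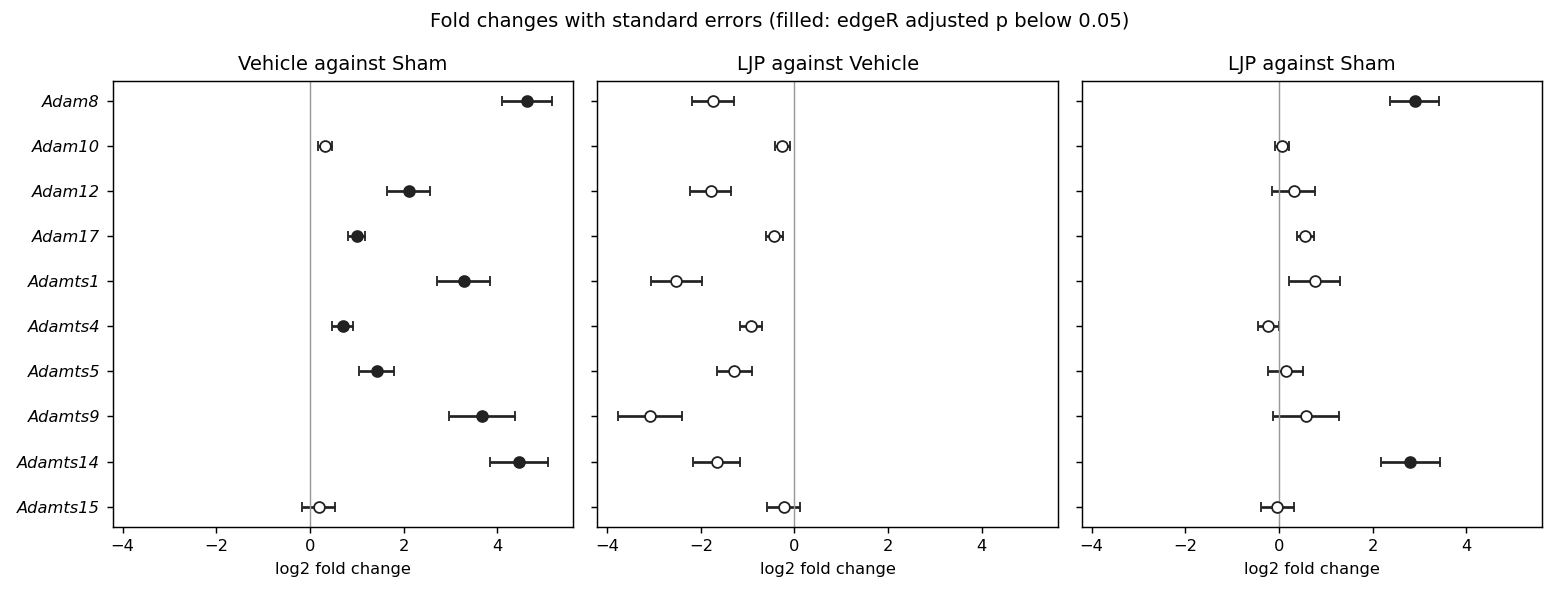
The 3 panels plot the log2 fold change of each gene in Vehicle against Sham, LJP against Vehicle and LJP against Sham, with bars of 1 standard error from the edgeR fit and filled points where the adjusted p was below 0.05. In the first panel 8 of 10 points are filled, in the second 0 and in the third 2 (Adam8 and Adamts14).

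Per kilobase of the gene length listed in the count table, which allows levels to be compared between genes, Adam10 led in Sham mice with a mean of 16.8 CPM per kb, followed by Adamts4 with 8.73. Next came Adam17 with 3.18 and Adamts1 with 2.80 CPM per kb, whose mice overlapped, and then Adamts15 with 0.966. Adam12 (0.572 CPM per kb), Adamts5 (0.448), Adamts9 (0.342) and Adam8 (0.322) overlapped with their neighbours in this order, and Adamts14 was last with 0.0788.

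In Vehicle mice Adamts1 had the highest mean level, 27.3 CPM per kb, ahead of Adam10 with 20.97, Adamts4 with 14.1 and Adam8 with 8.02, and every pair of neighbours in the order overlapped. In LJP mice the order began as in Sham mice, with Adam10 at 17.6 CPM per kb and Adamts4 at 7.45, and Adam8 had rank 5 of 10 with 2.40, whereas it had rank 9 in Sham mice.

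Marker sums of several cell types also differed between the mice. Summed endothelial markers were 636, 1325, 285 and 340.3 CPM in Vehicle mice 1 to 4, against 201 to 222 CPM in Sham and 204 to 257 CPM in LJP mice. Summed fibroblast markers were 214, 1502, 194 and 311 CPM in Vehicle mice, against 107 to 115 CPM in Sham and 107 to 184 CPM in LJP mice. Vehicle mouse 2, the highest of its group for all 10 proteases, was also the highest for endothelial, fibroblast, macrophage, astrocyte, and pericyte and smooth muscle markers. It was not the highest for neutrophil, red blood cell, microglial, oligodendrocyte, neuronal or choroid plexus markers. Vehicle mouse 1, second to it in endothelial and macrophage markers, was the lowest of its group for Adam17 and Adamts15.

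By edgeR, 7 of 7 macrophage and monocyte markers and 6 of 6 fibroblast markers were called higher in Vehicle than in Sham mice. So were 4 of 6 endothelial, 4 of 6 microglial, 3 of 7 pericyte and smooth muscle and 5 of 5 red blood cell markers. Over all genes 22.7% were called higher and 17.3% lower. Of the 6 neuronal markers 3 were called lower, and their sum was 4866, 3713, 5867 and 5619 CPM in Vehicle mice against 5988 to 6768 CPM in Sham mice. Microglial markers had another order, 206, 410.1, 450 and 467 CPM in Vehicle mice 1 to 4, with the lowest value in a mouse where Adam8, Adamts1 and Adamts9 were high. Their members differed, since in Vehicle mouse 1 P2ry12 (198 counts) and Siglech (43 counts) were below all Sham mice (294 to 384 and 173 to 196 counts). Of the 5 astrocyte markers 2 were called higher in Vehicle than in Sham mice, Gfap (log2 fold change 3.87) and Aldh1l1 (1.12), while Aqp4 was at 0.22, Gja1 at 0.11 and Slc1a3 at −0.02. LJP mouse 3 had the highest macrophage (33.1 CPM), endothelial and fibroblast sums of the LJP group and was the highest for 8 of the 10 proteases. Its microglial, oligodendrocyte, pericyte and smooth muscle, neutrophil, red blood cell and choroid plexus sums were also the highest of that group. Its neuronal and astrocyte sums were not. The part of these cell types in the differences between groups was not tested.

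**Figure D3:**
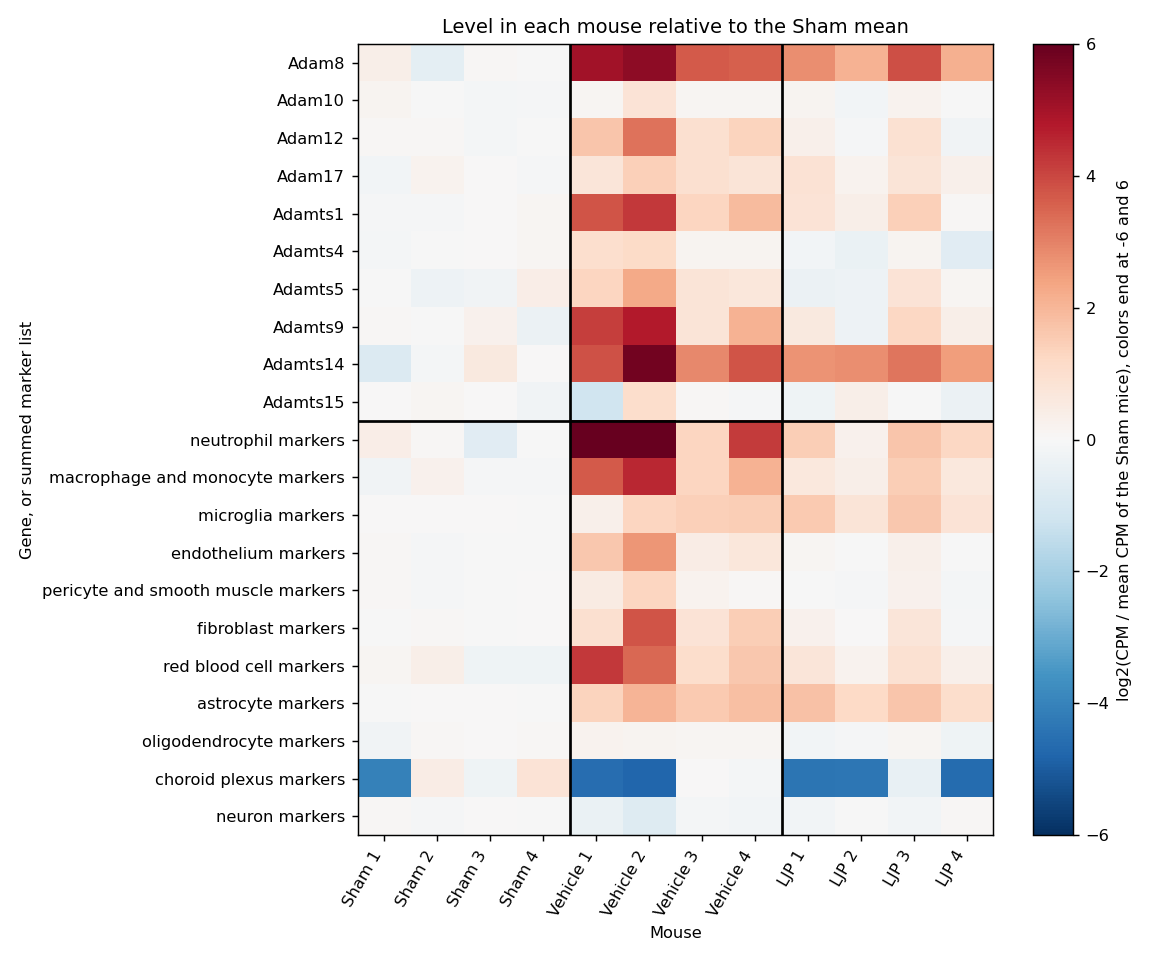
The heat map gives the log2 ratio of each mouse to the mean of the Sham mice, in CPM, for the 10 proteases (upper rows) and for summed markers of 11 cell types (lower rows), with mice as columns and colors that end at −6 and 6. Vehicle mice 1 and 2 are dark for Adam8, Adamts1 and Adamts9 and for neutrophil, macrophage and red blood cell markers, and the summed microglial and astrocyte markers of every I/R mouse are above those of the Sham mice.

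As a description of likeness, Pearson's r of log2 CPM was taken over the 12 mice, which share their groups and libraries. Among the proteases Adamts1 and Adamts9 had the highest r (0.98), and after each group's mean was removed Adamts1 and Adamts4 (0.97) and Adamts1 and Adamts9 (0.96) had the highest values, while Adam8 and Adamts14 had r = 0.95, or 0.60 within groups. The neighbours Adamts1 and Adamts5 had r = 0.91. The values of Adamts15 ran from −0.01 with Adam8 to 0.46 with Adam10, and within groups from 0.03 with Adamts9 to 0.55 with Adam10.

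Among all genes tested, those most like Adam8 were Emp3 (r = 0.996) and Gcnt1 (0.992), those most like Adam12 were Nid1 (0.997), a basement membrane protein, and Uaca (0.992), and those most like Adamts1 were Coro1c (0.992) and Sox7 (0.992), an endothelial transcription factor. Ddx21 (0.987) and Tnfaip2 (0.987) were most like Adamts9, and Pdgfb (0.987), a growth factor that recruits pericytes, and Eno3 (0.986) were most like Adamts14. For Adam10 they were Nras (0.974) and Sh3glb1 (0.961), for Adam17 Csk (0.983) and Rnaset2b (0.976), for Adamts4 Cobll1 (0.961) and Mrpl22 (0.955), for Adamts5 Sdhd (0.985) and Tmem14c (0.971), and for Adamts15 Ncoa3 (0.920) and Slc6a20a (0.911).

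Of 18 other ADAM genes 11 were tested, and in Vehicle against Sham mice 2 rose, Adam15 (log2 fold change 1.06, edgeR adjusted p = 0.00133) and Adam9 (0.70, adjusted p = 0.00412). Adam22 (−0.57), a synaptic LGI1 receptor without protease activity, Adam1a (−0.73) and Adam23 (−0.69) fell, the last named after its values were seen, and the call of Adam1a was lost without Sham mouse 1 (adjusted p = 0.0543). Over all genes 22.7% were called higher and 17.3% lower, so these counts are not read as a result about the list. The median of the 11 was 0.22, but −0.09 without Vehicle mouse 2 and −0.0011 without Vehicle mouse 1, and in LJP against Vehicle 0 of them were called and the median was 0.22.

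Of 13 other ADAMTS genes 12 were tested, and 3 rose and 1 fell after I/R, a share of risen genes near the 22.7% of all genes. Adamts7 (3.79, edgeR adjusted p = 0.00105), a protease of cartilage and vessel wall matrix, rose from 0.359 to 4.99 CPM, Adamts12 by 2.39 (adjusted p = 0.0315) and Adamts13, which cuts von Willebrand factor, by 1.17 (adjusted p = 0.0238), while Adamts3, a procollagen propeptidase like Adamts14, fell by 0.90 on the log2 scale. Without Vehicle mouse 2, Adamts7 was 3.02 (adjusted p = 0.000590) and Adamts12 was 1.01 (adjusted p = 0.206). Adamts12 also lost its call without Sham mouse 2, 3 or 4, and Adamts13 without Sham mouse 1, 2 or 3 or Vehicle mouse 1 or 2. Of the 6 ADAMTS-like genes, which lack the protease domain, Adamtsl4 (1.72) and Adamtsl3 (1.33) rose.

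Of 5 metalloprotease inhibitors 3 rose, beside 22.7% of all genes called higher. Timp1 went from 0.977 CPM in Sham to 51.0 CPM in Vehicle mice and stood at 7.27 CPM in LJP mice, with log2 fold changes of 5.71 (edgeR adjusted p = 0.000338) and −2.81 (adjusted p = 0.0678). Without Vehicle mouse 2 these were 5.10 and −2.22. Timp4 (0.91) and Timp2 (0.51) rose less, and Timp3, the main inhibitor of ADAM17 and of the aggrecanases, named after its values were seen, had a log2 fold change of 0.05 (adjusted p = 0.780).

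Partners of ADAM10 and ADAM17, which carry them through the secretory pathway, were called higher in 6 of 8 tested genes and lower in 1. Over all genes 22.7% were called higher and 17.3% lower, shares that also stand beside the convertases below. Rhbdf2 (iRhom2), the partner of ADAM17 in immune cells, rose from 1.54 to 12.3 CPM (log2 fold change 2.99, edgeR adjusted p = 0.000674) and stood at 4.14 CPM in LJP mice, Rhbdf1 rose by 1.59 and Frmd8 by 1.02. The gene that fell was Tspan5 (−0.36), a tetraspanin of ADAM10, named after its values were seen. Of the 4 proprotein convertases, which remove the inhibitory prodomain, Furin rose from 51.2 to 134 CPM (1.39, adjusted p = 0.00220) and Pcsk7 by 0.89 (adjusted p = 0.00939), and the latter was 0.31 (adjusted p = 0.102) with Vehicle mice 1 and 2 left out.

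Of 13 tested substrates of the sheddases 9 rose and 3 fell, with a median log2 fold change of 1.84. Over all genes 22.7% were called higher and 17.3% lower. The chemokine Cxcl16 (3.88), the TNF receptors Tnfrsf1a (3.30) and Tnfrsf1b (2.99), the adhesion molecule Icam1 (2.85) and Notch1 (1.38) rose, and App (−0.31), Cx3cl1 (−0.95) and Tgfa (−0.38), named after their values were seen, fell. Tgfa missed the threshold without Sham mouse 1, 2 or 3 or Vehicle mouse 3 or 4, and Vcam1, among the 9, without any 1 Sham mouse or Vehicle mouse 1 or 2. In LJP against Sham mice 5 of the 13 were called higher and 1 lower, beside 3.85% and 0.9% of all genes. Cxcl16 was at 3.13, Tnfrsf1b at 1.90 and Tnfrsf1a at 1.66. The call of Tnfrsf1a was lost without any 1 of the 4 Sham mice (edgeR adjusted p from 0.0783 to 0.0982), without LJP mouse 1 (0.0676) or without LJP mouse 3 (0.110), and Hbegf and Tgfa, also in this count, were lost without any 1 Sham mouse as well.

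Of 7 lecticans and link proteins 2 rose, Vcan (versican, 1.01) and Hapln2 (0.92), and 2 fell, Bcan (brevican, −0.73) and Hapln1 (−1.03), a link protein of perineuronal nets, beside 22.7% of all genes called higher and 17.3% called lower. The call of Bcan was lost without Sham mouse 3 (edgeR adjusted p = 0.0512) or Vehicle mouse 1 (0.0521), and that of Hapln2 with Vehicle mice 1 and 2 left out (0.0903). All 5 fibrillar procollagens rose, with Col3a1 at 5.07, Col5a2 at 3.74 and Col1a1 at 2.66, and without Vehicle mouse 2 these were 3.30, 2.29 and 1.28. Col5a1 lost its call without Sham mouse 2 (adjusted p = 0.0551). Col1a1 and Col3a1 are also in the fibroblast marker list.

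In LJP against Vehicle mice 0 of the 71 tested genes of these lists were called by edgeR, as were 4 of all 17558 genes. The count was 28 without Vehicle mouse 3, beside 3857 of all genes, and 21 without Vehicle mouse 4, beside 2095. It was 1 (Col5a2) without Vehicle mouse 2, beside 5 of all genes. With Vehicle mice 1 and 2 left out it was 3 (all procollagens), beside 8 of all genes. With no filter on low counts it was 12, beside 593 of all genes, and by DESeq2 22, beside 2281. The median log2 fold change was −2.49 for the procollagens, −0.75 for the sheddase substrates, −0.32 for the inhibitors and 0.18 for the lecticans and link proteins, beside −1.47 for the 10 proteases. Without Vehicle mouse 2 it was −1.11 for the procollagens, −0.52 for the substrates, −0.28 for the inhibitors, −0.04 for the lecticans and link proteins and −0.77 for the 10 proteases.

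**Figure D4:**
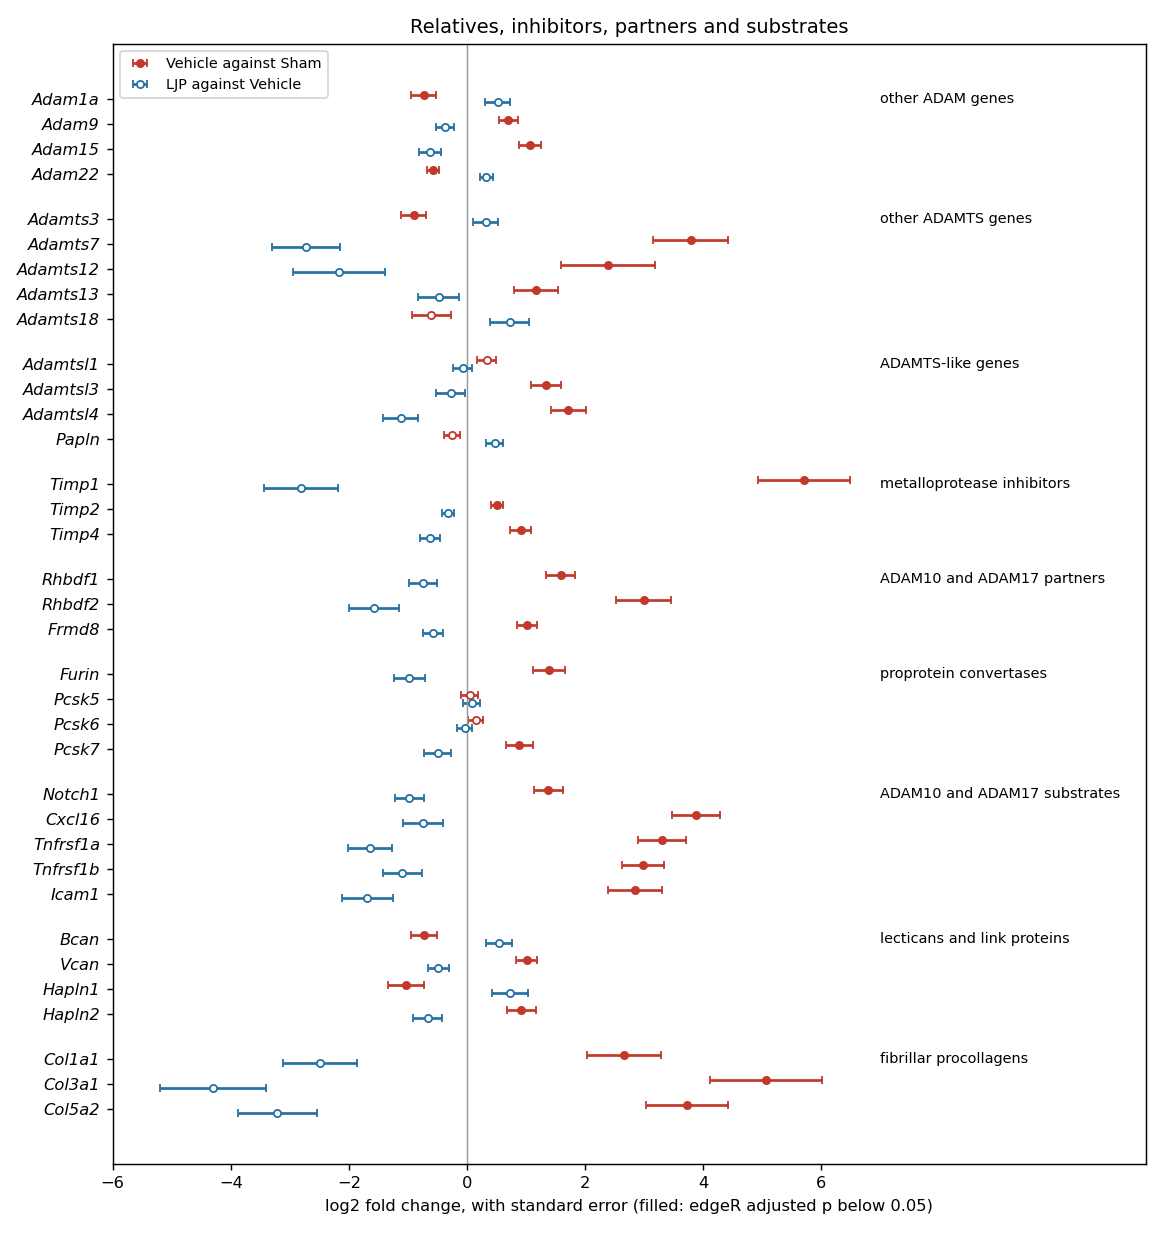
Log2 fold changes with bars of 1 standard error are plotted for named relatives, inhibitors, partners and substrates, in red for Vehicle against Sham and in blue for LJP against Vehicle, with filled points where the edgeR adjusted p was below 0.05. Timp1 (5.71) and Col3a1 (5.07) lie farthest to the right, and no blue point is filled.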

How the data were processed

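RNA-seq libraries of 12 mice (4 per group, as the titles label them) were made from poly(A) RNA with an Illumina kit and read as paired ends. The authors deposited raw counts per gene, not normalized, in a single table, with gene positions and lengths. Per the submitters' processing notes, featureCounts and DESeq2 were used and the builds GRCm39 and mm10 are named; the positions in the table equal those of GRCm38.p6 for all 39754 genes whose symbol RefSeq holds. The aligner, the strand setting and the treatment of reads shared between genes are not given in the sources used here.

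These counts were passed to edgeR 4.0.16 (R 4.3.3), where filterByExpr kept 17558 genes. After TMM scaling, its quasi-likelihood test compared the groups in a single fit of the 12 mice, which share an estimate of the spread. The Benjamini-Hochberg adjustment ran over all genes tested, and an adjusted p below 0.05 is a call. Standard errors were derived from the fold change and its F statistic. Pearson's r used log2 CPM with a prior count of 2. Alternatives were DESeq2 1.42.0, other scalings, no filter, fits of 2 groups, a replicate block, the study's thresholds (absolute log2 fold change over 0.58 with unadjusted p below 0.01), each mouse left out in turn, and Vehicle mice 1 and 2 left out.

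All 10 proteases are named. From each other gene list the 3 genes with the smallest p in Vehicle against Sham and the 3 in LJP against Vehicle are named, and for each protease the 2 genes of highest r. The proteases and lists were chosen with earlier results of these data known. No 2 mice of a group had the same counts within sampling noise. The limit of 3 counts covers counting error only. Promoter sequences came from RefSeq (GRCm38.p6); Adam12, Adamts4, Adamts5 and Adamts15 had no entry, and protein sequences were not analysed here. An overlap with 1 further gene is not reported here.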

Additional observations from a re-analysis of the deposited data

Results flagged for a closer look

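Within the groups of 4 mice, 3 of the 30 sets of protease levels had a mouse farther from the others than Dixon's critical value for the gap over the range allows, where chance gives about 1 in 20 sets, or 1.5. All 3 were Vehicle mouse 2, the highest of its group. The ratio of gap to range was 0.958 for Adam10, where the mouse stood at 139 CPM against 84.8 to 87.1 CPM, 0.857 for Adamts14, at 22.3 CPM against 3.01 to 5.76 CPM, and 0.845 for Adam12, at 42.3 CPM against 8.45 to 13.7 CPM. The same mouse had the highest summed fibroblast (1502 CPM), endothelial (1325 CPM), macrophage, astrocyte and pericyte markers of all 12 mice. Their part in these values was not tested.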

How the results depend on the processing

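The number of proteases called in Vehicle against Sham (8) was 7 with the replicate block and 6 with Vehicle mice 1 and 2 left out, and it ran from 7 to 8 when each mouse was left out in turn. In LJP against Vehicle (0) it was 7 by DESeq2, 5 with no filter on low counts, 7 at an adjusted p below 0.1 and 7 by the study's thresholds, and it ran from 0 to 7 when each mouse was left out; the 7 came without Vehicle mouse 3 or without Vehicle mouse 4, where the cause was not tested. In LJP against Sham (2) it was 4 with only the 2 groups compared in the fit and 4 with Vehicle mice 1 and 2 left out, and it ran from 1 to 3 when each mouse was left out. Over all genes, the calls in LJP against Vehicle were 4 by edgeR, 2281 by DESeq2, 593 with no filter, 2615 at an adjusted p below 0.1, 1223 by the study's thresholds, 2 with only the 2 groups in the fit, 2 with the replicate block, 8 with Vehicle mice 1 and 2 left out and 3 to 3857 when each mouse was left out. In LJP against Sham they were 834, 1467 by DESeq2, 4043 with only the 2 groups, 464 with the replicate block, 1384 at an adjusted p below 0.1, 4389 with Vehicle mice 1 and 2 left out and 393 to 2357 when each mouse was left out. In Vehicle against Sham they were 7014 and 3807 by the study's thresholds.

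Signs turned only for values that did not pass the test. The log2 fold change of Adamts15 ran from −0.31 (without Vehicle mouse 2) to 0.46 in Vehicle against Sham when each mouse was left out, from −0.50 to 0.26 (without Vehicle mouse 2) in LJP against Vehicle and from −0.20 to 0.048 (without LJP mouse 4) in LJP against Sham, where it was 0.014 on library size only. In LJP against Sham, Adamts5 ran from −0.17 to 0.31, Adamts12 from −0.30 to 0.62, Adamts18 from −0.022 to 0.25 and Col1a1 from −0.033 to 0.28. In Vehicle against Sham, Pcsk5 ran from −0.066 to 0.17 and was −0.015 with Vehicle mice 1 and 2 left out. In LJP against Vehicle, Pcsk6 ran from −0.11 to 0.091, Adamtsl1 from −0.24 to 0.018, and Pcsk7 was 0.076 with Vehicle mice 1 and 2 left out.

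The labels give no pairing of mice with the same number. Over 12 such pairs the correlation of deviations from group means ran from −0.32 to 0.11, and 1 pair was above 0.1. Of 12 mice, 2 correlated best with their own number. These values cannot exclude a pairing, because the wide spread within the Vehicle group enters the deviations. With the replicate block, 7, 0 and 2 proteases were called in the 3 comparisons, and Adamts4 was the one that lost its call in Vehicle against Sham (log2 fold change 0.65, edgeR adjusted p = 0.0608). Sham counts of Adamts14, 4 to 11 per mouse, limit the precision of its fold changes. With 4 mice per group, 1 mouse could decide a size.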
